A study of Mus musculus with 29 samples.

Results

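The genes described here are the uroplakins Upk1a, Upk2, Upk1b, Upk3a and Upk3b together with Snx31, a sorting nexin, 6 of the 35199 genes in each deposited expression table. They were chosen by name, with earlier results of these data known, and all 6 were present in each of the 5 tables used. RNA was sequenced from mouse bladder in which a tamoxifen-inducible Cre, expressed from the Krt5 promoter, switched on VP16;Pparg, a form of the nuclear receptor Pparg fused to a viral activation domain and therefore active without ligand. The transgene sits in Rosa26 behind a CAG promoter, so it was expressed in Krt5-positive basal cells and their progeny. Sorted Gfp+ cells, labelled urothelium and used in the study to follow basal cells, were taken 4 days after tamoxifen as 4 control samples, labelled wild type and described in the study as K5;mTmG, and 5 samples labelled K5VP16;Pparg+/-; none of them had received BBN, and both groups carried the Krt5 Cre and a Gfp reporter. Tumors were induced with BBN, a bladder carcinogen given at 0.05% in the drinking water, and captured by laser microdissection. They comprised 3 basal tumors from control animals, wild type in the labels and VP16;Pparg fl/fl or K5;mTmG in the study. From K5VP16;Pparg+/- animals came 3 luminal tumors. Mixed lesions of such animals gave 3 samples of the luminal part (luminal domain) and 3 of the basal-like part (basal-like domain). The mice were 8 to 12 weeks old when injected with tamoxifen. All tumor groups, controls included, carry the label of 5 months of BBN, and the tumors are titled as 4-month samples. In the study those 4 months count from tamoxifen, which was given into the bladder after a first period of BBN. For the sorted cells tamoxifen was injected intraperitoneally. Luminal and basal-like domains may come from the same lesions: their library numbers are neighbours (CT128 and CT129, CT143 and CT144, CT148 and CT149), but no label says that neighbours share a lesion, and they were not paired.

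Uroplakins are the membrane proteins of the rigid plaques that cover the apical surface of the superficial (umbrella) cells of the urothelium and make it impermeable to urine. The tetraspanins Upk1a and Upk1b each bind a single-pass partner in the endoplasmic reticulum: Upk1a pairs with Upk2, and Upk1b pairs with Upk3a or its relative Upk3b. The pairs join, move through the Golgi into fusiform vesicles and reach the apical membrane by Rab-dependent exocytosis. Snx31 is a sorting nexin that binds uroplakins and takes part in their delivery from endosomes to lysosomes. In normal urothelium uroplakins mark luminal differentiation, and basal cells carry little of them.

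In the GRCm38 assembly (GENCODE M21) Upk1a lies on the minus strand at chr7:30603092-30612847 and Upk2, the shortest of these loci, on the minus strand at chr9:44452715-44454976. Upk1b lies on the minus strand at chr16:38773184-38800328. Upk3a is on the plus strand at chr15:85017141-85022547, Snx31 on the minus strand of the same chromosome at chr15:36504062-36555573, and Upk3b on the plus strand at chr5:136038496-136046487. Upk3bl, a related gene that is no member, starts 8004 bases downstream of Upk3b on the same strand.

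Since all of these genes were higher in the luminal than in the basal tumors described below, the 250 bases before the RefSeq start sites (GRCm38.p6) of the 3 members with a promoter entry, Upk1a, Upk3a and Upk3b, were searched on both strands. The motifs were the nuclear receptor half-site AGGTCA, its direct repeat AGGTCANAGGTCA (which contains the half-site), the GATA sites AGATAA and TGATAA, the GC box GGGCGG, the TATA box TATAAA, the AP-1 site TGACTCA, the Grainyhead-like site AACCNGGTT and the Ets core AGGAAG. The Upk3a window (chr15:85016891-85017140, plus strand) held an AGATAA match on the opposite strand, 188 to 183 bases before the start, and 2 GC boxes. The Upk3b window (chr5:136038246-136038495, plus strand) held 1 half-site, 155 to 150 bases before the start, and 1 Ets core on the opposite strand. These 2 windows are shown because they hold matches, which are in capitals.
Upk3a: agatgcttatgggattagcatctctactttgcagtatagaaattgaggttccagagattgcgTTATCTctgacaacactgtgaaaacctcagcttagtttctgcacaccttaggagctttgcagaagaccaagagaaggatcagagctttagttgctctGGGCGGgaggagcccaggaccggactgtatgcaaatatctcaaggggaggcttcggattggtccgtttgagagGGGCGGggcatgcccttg
Upk3b: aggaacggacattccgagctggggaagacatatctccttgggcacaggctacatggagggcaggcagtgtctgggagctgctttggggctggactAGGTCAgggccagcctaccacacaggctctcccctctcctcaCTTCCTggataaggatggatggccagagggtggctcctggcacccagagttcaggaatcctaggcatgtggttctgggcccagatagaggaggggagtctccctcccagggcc
None of the motifs was found in the Upk1a window. Among all 32851 promoter windows of this length, 14.0% held the half-site, 9.99% AGATAA, 32.7% the GC box and 29.5% the Ets core. The direct repeat was in 0.0335%, TGATAA in 7.94%, the TATA box in 12.4%, the AP-1 site in 4.46% and the Grainyhead-like site in 0.240%. Upk3a and Upk3b thus shared no motif of this list in these windows.

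All values below are the authors' normalized counts, whose totals ran from 36520193 to 41435665 per library in the sorted cells and from 41697178 to 53252995 in the table of basal tumors, luminal tumors and luminal domains; the depth in reads is unknown. Libraries are named by the numbers in the deposited tables (CT063 and so on), which carry no replicate number or animal, so the p-values measure the spread between these libraries. Fabp4, a lipid-binding protein and standard Pparg target, checked the sorted groups: it was 207 to 467 in controls and 4969 to 30598 in mutants (log2 difference 4.64, SE 0.49, adjusted p = 0.00171). Pparg itself was 6111 to 9032 in mutants and 9381 to 9999 in controls (log2 difference -0.36, adjusted p = 0.126), and whether the transgene's transcript was counted as Pparg is not stated. The basal keratin Krt5 was 62918 to 93817 in mutant and 91106 to 109572 in control cells, and was thus present in all 9 libraries, which had been sorted on Gfp. Krt14, also of basal cells, was 616 to 11163 in mutants and 388 to 747 in controls (adjusted p = 0.197), whereas the luminal keratin Krt18 was 46952 to 143332 and 48830 to 70859. The basal collagen Col17a1 was lower in mutants, at 5358 to 12404 against 13443 to 28513 (log2 difference -1.34, adjusted p = 0.0315), a call that was lost without CT065, CT066, CT067, CT070 or CT074 (adjusted p up to 0.107) and without a trend in the variance (0.0603). The superficial keratin Krt20 was 506 to 1319 in controls and 1187 to 5177 in mutants (log2 difference 1.83, adjusted p = 0.0444, a call that was lost when any library but CT076 was left out, without a trend, with array weights and in the smaller table of 3 against 3 libraries, with adjusted p up to 0.138). Summed Y-linked transcripts were 338 to 395 in the 5 mutant libraries and 404 in control CT063, against a median of 9038 over the 4 controls, so the mutants differ from 3 of 4 controls in these transcripts too.

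The first comparison asked whether 4 days of Pparg activation changed these genes in the sorted Gfp+ cells. The 6 genes were abundant in both groups: together they made up 0.445 to 0.957% of the normalized counts in controls and 0.581 to 0.914% in mutants. These levels, beside the high Krt18 of the controls, go against the description of basal cells above. The basal genes Krt5, Col17a1 and Trp63 (27230 to 36766 in controls) were abundant as well. Krt14 was low, but the study counts Krt5-positive cells without Krt14 among the basal cells. The libraries are therefore called sorted Gfp+ cells here. None of the 6 passed the test at an adjusted p under 0.05 (2 of 6, Upk2 and Upk3b, had an unadjusted p under 0.05, against 20.8% of all genes), in a comparison where 2.85% of the 16413 genes tested were called, 1.77% as higher and 1.08% as lower in the mutants. All 6 fitted differences were above 0, from 0.03 to 0.65 on the log2 scale, with a median of 0.48 against 0.00455 over all genes tested. With quantile normalization those of Upk1a and Upk3a fell below 0. Control and mutant values overlapped for every member; 4.67% of genes were separate and higher in the mutants.

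Upk1a, the tetraspanin partner of Upk2, was 119386, 100079, 66833 and 87541 in control libraries CT063, CT065, CT066 and CT067. In mutants CT070, CT071, CT074, CT076 and CT078 it was 128424, 123339, 101144, 74815 and 98682. The groups covered nearly the same range, and the log2 difference was 0.18 (95% interval -0.31 to 0.67, adjusted p = 0.688). Its partner Upk2, with which it leaves the endoplasmic reticulum, was 11150, 11666, 7859 and 8456 in controls and 18166, 20989, 11892, 9761 and 18209 in mutants, in the same library order. Only mutant CT076 fell inside the control range, yet with a log2 difference of 0.65 (SE 0.23) Upk2 missed the threshold (adjusted p = 0.152).

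Upk1b, the tetraspanin of the other pair, was 66550, 47879, 27538 and 34171 in controls and 134718, 84545, 61787, 33895 and 47235 in mutants. Mutants CT070 and CT071 lay above all controls, whereas the other 3 lay within the control range (log2 difference 0.63, SE 0.40, adjusted p = 0.398). Upk3a, a single-pass partner of Upk1b, was 117051, 90881, 40840 and 50732 in controls and 42624, 74360, 77928, 67935 and 100431 in mutants. The mutant that was highest for Upk1b, CT070, was the lowest mutant for Upk3a. The log2 difference of Upk3a was 0.03 (95% interval -0.72 to 0.79, adjusted p = 0.969), and its sign turned when CT066, CT067, CT074 or CT078 was left out (-0.22, -0.11, -0.01 and -0.10). In the separately normalized table of 3 controls (CT065, CT066, CT067) and 3 mutants (CT071, CT074, CT078) it was larger, 0.55, though again not called (adjusted p = 0.457).

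Upk3b, the second partner of Upk1b, came closest to the threshold. It was 12918, 10650, 8820 and 15103 in controls and 21370, 17070, 18917, 17554 and 14832 in mutants, so 4 of 5 mutants lay above every control. The log2 difference was 0.61 (95% interval 0.25 to 0.98) with an adjusted p of 0.0753. Snx31 was 26565, 18532, 10749 and 11412 in controls and 27911, 24857, 16381, 12430 and 22649 in mutants (log2 difference 0.35, SE 0.31, adjusted p = 0.562). In the smaller table of 3 controls and 3 mutants the summed members were 148491 to 254805 in controls and 262697 to 317222 in mutants. The fitted differences there ran from 0.36 for Upk1a to 0.85 for Upk2 and none was called (adjusted p = 0.483 and 0.173). Upk2 was 7145 to 10587 in those controls and 10799 to 19203 in those mutants, while the ranges of the other 5 members overlapped. The share of all genes with separate ranges among these libraries was not counted, so no result is drawn from the gap of Upk2. Control CT066 was the lowest control for all 6 genes, and control CT063, the one with few Y-linked transcripts, was the highest control for 4 of 6. Summed markers of fibroblasts (Col1a1, Col1a2, Dcn, Pdgfra, Lum) were 8226 to 58856 in controls and 19816 to 163827 in mutants, with 5 of 5 genes higher and 1 called, and those of smooth muscle were 89.2 to 876 and 293 to 2213, with 5 of 5 higher and none called. The part of these other cells and of the Y-linked transcripts in the members' values was not tested, and in these bulk samples fewer cells of a type and less RNA per cell cannot be told apart.

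**Figure D1:**
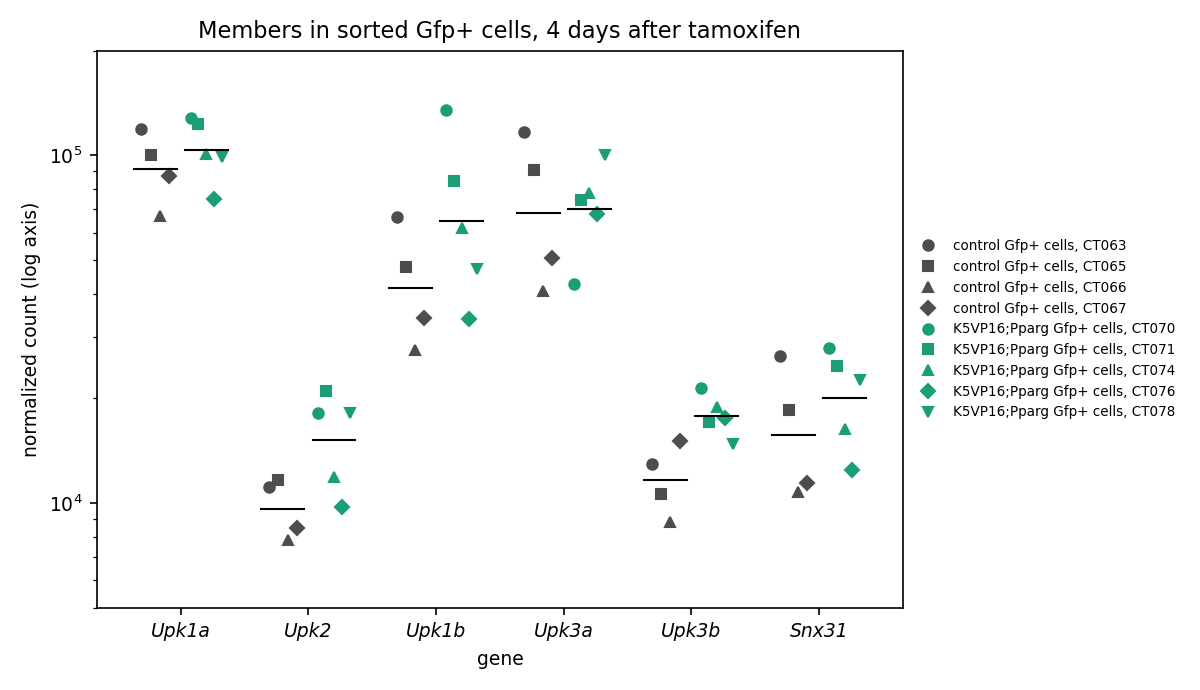
Normalized counts (log axis) of the 6 genes in the 4 control and 5 K5VP16;Pparg libraries of sorted Gfp+ cells; each symbol is a library and each black line the mean on the log2(count + 1) scale. The groups overlap for every gene, most for Upk1a and Upk3a, and for Upk3b only the mutant at 14832 lies within the control range.

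The members were then scaled by transcript length (GENCODE M21 coding transcripts of 1.08 kb for Upk2 to 3.53 kb for Upk3b). The most abundant in control cells were Upk3a (68505 ± 32460 normalized counts per kb, SD, n = 4) and Upk1a (65770 ± 15525), which did not differ beyond their spread. Upk1b followed at 23249 ± 9100 and Upk2 at 9033 ± 1758 per kb. Snx31 (6237 ± 2743) overlapped Upk2, and Upk3b was the lowest at 3363 ± 773. In mutants the order was the same but for Upk1a and Upk3a, at 74089 ± 15136 and 66473 ± 19007 per kb (n = 5).

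The pairs were then followed as log2 ratios of partner to tetraspanin within each library. Upk2 relative to Upk1a was -2.77 ± 0.27 in mutants (SD, n = 5) and -3.25 ± 0.18 in controls (n = 4), a difference of 0.48 (exact two-sided permutation test, p = 0.0317, 0.127 after adjustment over 4 ratios; the smallest p this design can give is 0.0159). Upk3a relative to Upk1b was 0.12 ± 1.12 and 0.72 ± 0.18, respectively, a difference of -0.60 (exact p = 0.365, adjusted 0.487). Among mutants the ratio ran from -1.66 in CT070 to 1.09 in CT078, and Upk1b exceeded Upk3a in CT070 and CT071. Upk3b relative to Upk1b differed by -0.02 (exact p = 0.968) and Upk3b relative to Upk3a by 0.58 (exact p = 0.206, adjusted 0.413). No ratio passed the test after adjustment.

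Across the 9 sorted libraries Upk1a, Upk1b and Snx31 varied together, with correlations of log2 values between 0.87 and 0.92, and within groups the same pairs stood at 0.86 to 0.93. For Upk3a r ran from -0.04 (with Upk3b) to 0.46 (with Snx31). Within groups that of Upk3b was low as well, from -0.11 (with Upk3a) to 0.47 (with Upk1a). These are descriptions over libraries whose read depth is unknown and whose marker sums for other cells differ. The part of such differences in the correlations was not tested. By correlation of log2 values, with predicted genes left out, the 5 other genes most like the members' mean were Gimap9, Arf4, Bicdl2, Pdzk1ip1 and Sh3kbp1 (r = 0.97, 0.97, 0.96, 0.96 and 0.96). Of all 16413 genes, members and predicted genes included, 70 exceeded 0.9.

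The tumor comparison asked how the luminal tumors of mutants differ from the basal tumors of controls. The 6 genes together held 0.00173 to 0.0204% of the normalized counts in basal tumors and 0.183 to 1.19% in luminal tumors. Upk1a, Upk2, Upk3a, Upk3b and Snx31 rose (5 of 6 called, against a background of 1.73% of 16640 genes called and 1.02% called as higher), and Upk1b missed the threshold. Ranked by log2 difference in the main fit, Upk3a was in place 1 of all 16640 genes tested, Snx31 in place 3, Upk1a 4, Upk3b 6, Upk2 12 and Upk1b 43. Over the other settings Upk3a ran from 9.46 to 10.15 and Snx31 from 8.96 to 10.35, so their order depended on the setting. The members were chosen with earlier results of these data known, so their places and called share are descriptions. For all 6 the lowest luminal tumor exceeded the highest basal tumor, which was the case for 9.29% of genes tested, and the members' median log2 difference was 9.50 against -0.14 over all genes.

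Upk1a was 36.2, 8.28 and 665 in basal tumors CT111, CT113 and CT115 and 73702, 150644 and 10304 in luminal tumors CT126, CT132 and CT140. The weakest luminal tumor, CT140, still stood well above CT115, the basal tumor with the most Upk1a (log2 difference 9.63, SE 1.78, adjusted p = 0.0385). Its partner Upk2 was 10.8, 121 and 62.4 in basal tumors and 31624, 60114 and 3492 in luminal tumors, in the same order, which gave 8.70 (SE 1.23, adjusted p = 0.0197). CT140 was again the lowest luminal tumor and CT132 the highest.

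Upk1b was the exception. It was 39.0, 8359 and 964 in basal tumors and 57232, 145971 and 52309 in luminal tumors, for a log2 difference of 6.79 (SE 1.51, 95% interval 3.41 to 10.17, adjusted p = 0.0576). In basal tumor CT113 the 8359 normalized counts of Upk1b stood beside at most 121 for any other member of that library, and without CT113 Upk1b passed the test (8.59, adjusted p = 0.0178). It passed as well with a pseudocount of 5, with array weights and with luminal tumors and domains pooled (adjusted p by limma down to 0.0253), and in each of these fits 6 of 6 members were called. Upk3a was 648, 4.56 and 26.1 in basal tumors and 20129, 218623 and 23168 in luminal tumors (log2 difference 9.99, SE 1.79, adjusted p = 0.0365). Here it was CT111 that stood apart: Upk3a held the largest part of the members' counts there, whereas Upk1b did in CT113 and CT115.

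Upk3b was 5.14, 0.933 and 51.7 in basal tumors and 5333, 26467 and 1275 in luminal tumors (log2 difference 9.37, SE 1.32, adjusted p = 0.0197). Snx31 was 4.35, 0.949 and 55.8 in basal tumors and 6865, 21408 and 2862 in luminal tumors (log2 difference 9.80, 95% interval 6.94 to 12.66, adjusted p = 0.0172). In CT113 both stood under 1 normalized count, so the size of these differences depends on the pseudocount, and with a pseudocount of 5 that of Snx31 was 8.96. The correlation of Upk3b with Snx31 was 0.99 over the 8 libraries and 0.94 within groups, whereas that of Upk1b with Snx31 was 0.80 and -0.000308.

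**Figure D2:**
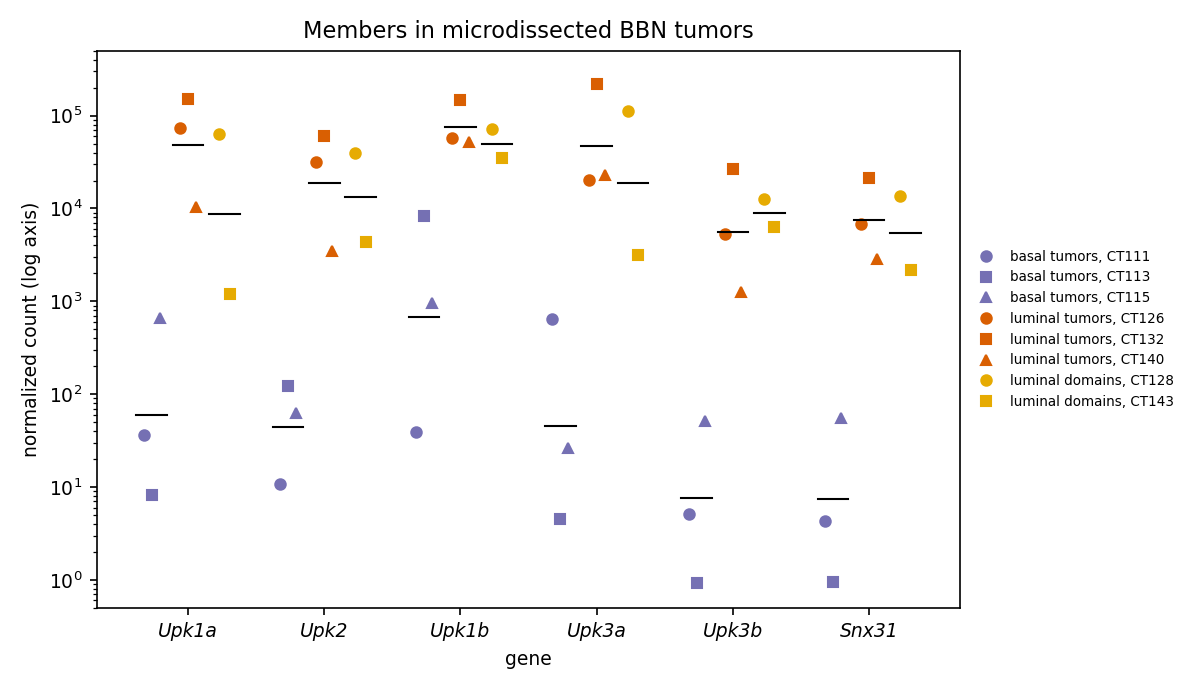
Normalized counts (log axis) of the 6 genes in 3 basal tumors, 3 luminal tumors and 2 luminal domains of one deposited table; each symbol is a library and each black line the mean on the log2(count + 1) scale. Basal and luminal tumors are separate for every gene, with the smallest gap for Upk1b, where basal tumor CT113 reaches 8359.

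The number of members called depended on single libraries and on the fit. It was 3 without a filter, 1 without a trend in the variance and 2 with basal and luminal tumors alone. It was 0 when basal tumor CT111 or luminal tumor CT126 or CT132 was left out, 3 without luminal domain CT143 (which shares the estimate of spread), 4 without CT113, CT115 or CT128 and 5 without CT140; over these fits the log2 differences of the 6 genes stayed between 4.74 and 11.89. The call of Upk3a, the gene with the widest difference in the main fit, was lost in 7 of 8 of these fits, all but that without CT140 (adjusted p up to 0.124). That of Upk1a was lost in 5 of 8, without CT111, CT113, CT126, CT132 or CT143 (up to 0.130). Both were also lost without a filter, without a trend and with basal and luminal tumors alone (up to 0.101 and 0.108). Upk2, Upk3b and Snx31 each lost their call in 3 of 8, without CT111, CT126 or CT132. Other cells differed between these tumors too: summed fibroblast markers were 25693 to 41788 in basal and 144 to 6539 in luminal tumors, and smooth muscle markers 4745 to 42943 and 11.6 to 1053, with 5 of 5 genes of each list lower. Leukocyte markers summed to 31588 to 133975 and 1058 to 19502 (5 of 5 lower, none called), and endothelial markers to 1234 to 2284 and 370 to 1053 (3 of 3 lower, none called). Luminal tumor CT132, the highest for all 6 members, had the lowest levels of both Col1a1 (36.3) and Acta2 (11.6) as well as of Krt5 (4731). The part of these other cells in the result was not tested.

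The luminal domains of mixed lesions were compared with the same 3 basal tumors in a table of their own. Upk2, Upk3b and Snx31 rose, with log2 differences of 7.58 (SE 1.14, adjusted p = 0.0258), 9.53 (SE 1.26, adjusted p = 0.0237) and 9.32 (SE 1.33, adjusted p = 0.0258). Thus 3 of 6 members were called where 2.53% of 14921 genes were called, 1.7% as higher. Upk1a (7.53, adjusted p = 0.0751), Upk3a (8.18, adjusted p = 0.0672) and Upk1b (6.28, adjusted p = 0.0878) did not pass. All 6 were separate from the basal tumors, as were 14% of genes tested in this direction, and the members' median was 7.88. Because the basal tumors are shared with the comparison above, the 2 results are not independent of each other.

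Luminal domain CT128 was the highest of the 3 for all 6 genes. Upk3a was 119352 in CT128 but 3425 in CT143 and 6521 in CT148, and Upk1a was 68490, 1291 and 18445 in these libraries. Upk2 was 42437, 4708 and 3580, and Snx31 14464, 2332 and 5037. Upk3b (13506, 6907 and 2971) and Upk1b (75920, 38062 and 59323) were more even, and Upk1b was the most even of all. Without a trend in the variance, or without CT111, CT128, CT143 or CT148, 0 members were called, and leaving out CT113 or CT115 left 4. With 2 luminal domains in the table of 8 libraries 2 were called, and the call of Upk2 was lost. The summed fibroblast markers were 3581 to 21537 in luminal domains and 26778 to 44041 in the basal tumors of this table. Smooth muscle markers summed to 1032 to 1622 and 4930 to 45206, with 5 of 5 lower and 2 called. The part of these cells in the result was not tested.

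Luminal tumors and the 2 luminal domains of the same table (CT128 and CT143) were not told apart. None of the 6 members was called or had an unadjusted p under 0.05, and none of 16640 genes passed in this comparison by limma (0% called; 761 genes, or 4.57%, had an unadjusted p under 0.05, and 7 were called without a trend in the variance). Upk1a had the widest difference (2.47 higher in luminal tumors, 95% interval -1.98 to 6.92) and Upk3b was the single member with a difference below 0 (-0.67, interval -3.96 to 2.63). These intervals allow large differences in either direction, and values of all 6 genes overlapped between the groups.

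The last comparison set the basal-like domains of mixed lesions against the luminal domains. All 6 members had lower fitted values in the basal-like domains, from -1.15 for Upk1b to -4.79 for Upk3a with a median of -2.09. None was called, and Upk1b, Upk3b and Snx31, 3 of 6, had an unadjusted p under 0.05. The sizes depended on single libraries. With 1 library left out the difference ran from -7.40 to -1.76 for Upk3a and from -4.25 to -1.75 for Upk3b. It ran from -3.89 to -1.04 for Upk1a, -2.86 to -0.67 for Upk2, -2.50 to -1.08 for Snx31 and -1.42 to -0.93 for Upk1b. By limma 0% of 14874 genes were called in this comparison (757 genes, or 5.09%, had an unadjusted p under 0.05, and 20 were called without a trend in the variance). Upk1b and Upk3b did not overlap between the groups, a pattern found for 5.14% of genes in this direction.

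Upk1a was 17560, 604 and 1336 in basal-like domains CT129, CT144 and CT149 and 68915, 1315 and 18781 in luminal domains CT128, CT143 and CT148 (log2 difference -2.30, SE 1.59, adjusted p = 0.935). Basal-like CT129 and CT149 thus exceeded luminal CT143. Upk2 was 9449, 3390 and 458 against 42509, 4777 and 3629, and overlapped as well (-1.88, SE 1.22).

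Upk1b was 31188, 19694 and 27078 in basal-like domains and 76595, 38894 and 60565 in luminal domains. This was the narrowest difference of the 6 (-1.15, SE 0.31, 95% interval -1.87 to -0.42, unadjusted p = 0.00658, adjusted p = 0.789), and the groups did not overlap. Upk3a was 19022, 898 and 6.66 in basal-like domains and 119575, 3475 and 6611 in luminal domains (-4.79, SE 2.59, 95% interval -10.77 to 1.20). Its level in CT129 thus lay within the luminal range, and in CT149 there was almost none.

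Upk3b was 2744, 1425 and 85.6 in basal-like domains and 13695, 7094 and 3049 in luminal domains, again without overlap (-3.26, SE 1.19, unadjusted p = 0.0261, adjusted p = 0.935). Snx31 was 2467, 2951 and 515 against 14802, 2417 and 5216 (-1.88, SE 0.81), and CT129 and CT144 exceeded luminal CT143. CT129 was the highest basal-like domain for 5 of 6 members, all but Snx31, and CT149 the lowest for 4. Each basal-like library was lower than the luminal library of the neighbouring number for every member, except for Snx31 in CT144. Of the fibroblast markers 5 of 5 had higher fitted values in basal-like domains and none was called, and their sums overlapped (8619 to 69747 against 3667 to 21810). Leukocyte markers summed to 20732 to 81995 and 20887 to 42072 (3 of 5 higher, none called). Of these only Cd3e of T cells was separate (177 to 311 against 52.7 to 112). Cd68 and Lyz2 had lower fitted values (-0.76 and -0.11). The share of all genes separate and higher is not given here, so no result is drawn from Cd3e. Smooth muscle markers summed to 1369 to 4738 and 1054 to 1645 (3 of 3 tested higher, none called). The part of these cells in the members' values was not tested.

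**Figure D3:**
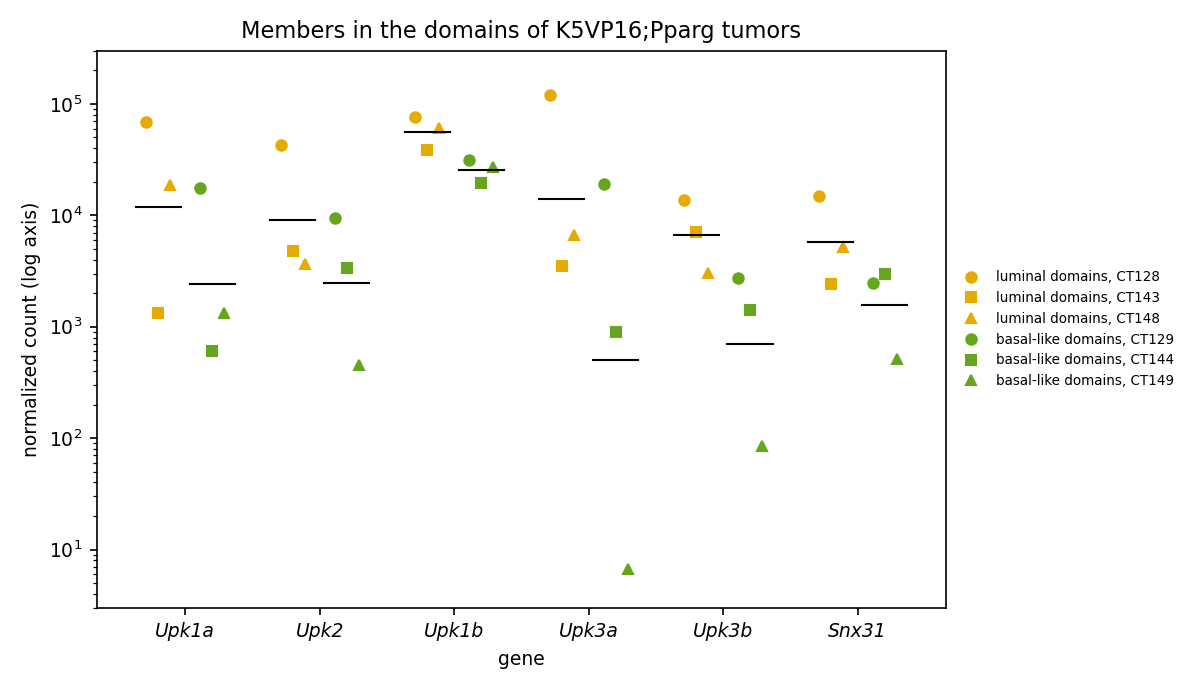
Normalized counts (log axis) of the 6 genes in 3 luminal and 3 basal-like domains of K5VP16;Pparg tumors; each symbol is a library and each black line the mean on the log2(count + 1) scale. Upk1b stays at 19694 or above in all 6 libraries, while Upk3a in the basal-like domains runs from 19022 to 6.66.

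Set side by side, basal tumors and basal-like domains stood at different distances from the luminal domains they were each compared with. Luminal domains exceeded basal tumors by 7.53 for Upk1a, 7.58 for Upk2, 6.28 for Upk1b, 8.18 for Upk3a, 9.53 for Upk3b and 9.32 for Snx31 on the log2 scale. Relative to luminal domains the basal-like domains stood at -2.30, -1.88, -1.15, -4.79, -3.26 and -1.88 for the same genes. Both sets moved when 1 library was left out. For Upk3a the former ran from 6.63 to 10.10 and the latter from -7.40 to -1.76, and for Upk2 from 6.45 to 8.29 and from -2.86 to -0.67. The 2 tables were normalized separately and share the luminal domains, so the gap between these distances was not tested.

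**Figure D4:**
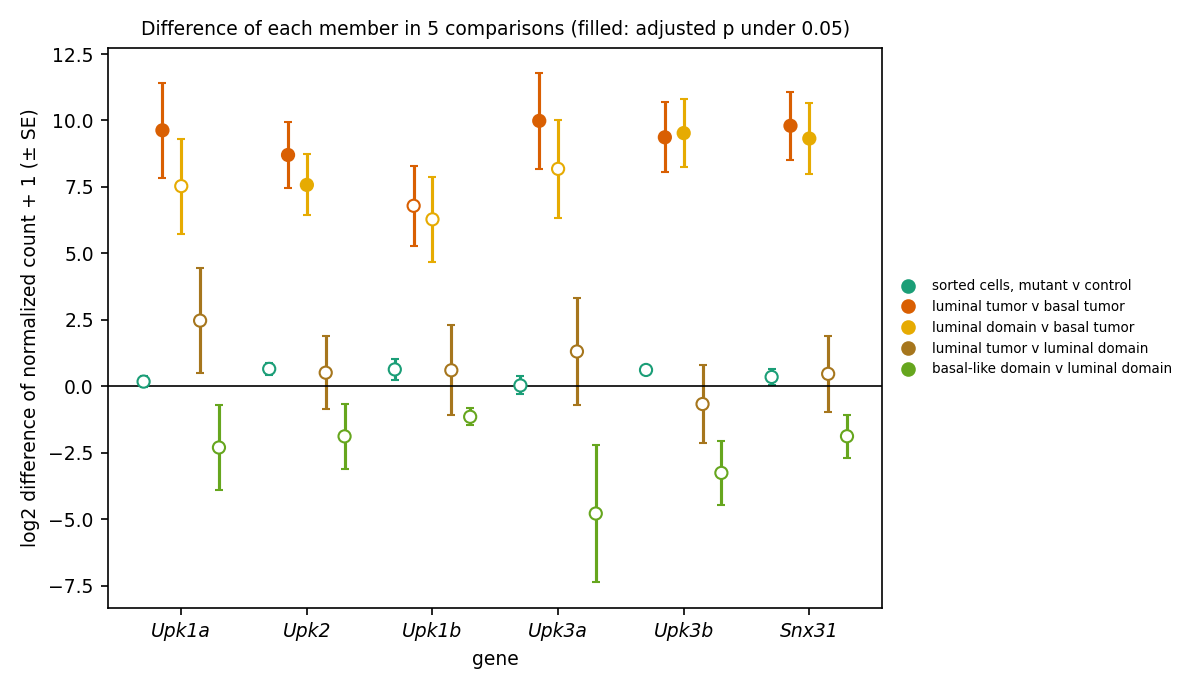
Log2 difference of normalized count + 1 (points, ± SE) of each member in 5 comparisons; filled points had an adjusted p under 0.05. Against basal tumors the differences lie between 6.28 and 9.99, in sorted cells between 0.03 and 0.65, and in basal-like against luminal domains between -4.79 and -1.15.

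The make-up of the uroplakin pool differed between samples as well as its size. In the 9 sorted libraries Upk1a held 32.7 to 42.2% of the 6 members' summed normalized count, Upk3a 11.4 to 33.3% and Upk1b 15.6 to 36.1%. In the tumor table the share of Upk1b was 23.4% in luminal tumor CT132 and 56.0% in CT140, 67.1% in luminal domain CT143, and 98.4% in basal tumor CT113 against 5.24% in CT111. In basal-like domains it was 37.8% in CT129, 68.0% in CT144 and 91.9% in CT149, where Upk3a held 0.0226%. In CT111 Upk3a held 87.2%. As log2 ratios, Upk3a relative to Upk1b was -2.01 ± 2.30 in luminal and -5.65 ± 5.63 in basal-like domains (SD, n = 3 each). The groups overlapped, so this difference was not larger than the spread between libraries taken as unpaired. Between libraries with neighbouring numbers the ratio was lower in the basal-like one each time. It was 0.64 in CT128 and -0.71 in CT129, -3.48 in CT143 and -4.45 in CT144, and -3.20 in CT148 and -11.79 in CT149. A paired difference was not tested. With 3 libraries against 3 an exact permutation test cannot go below 0.10, and none was made.

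**Figure D5:**
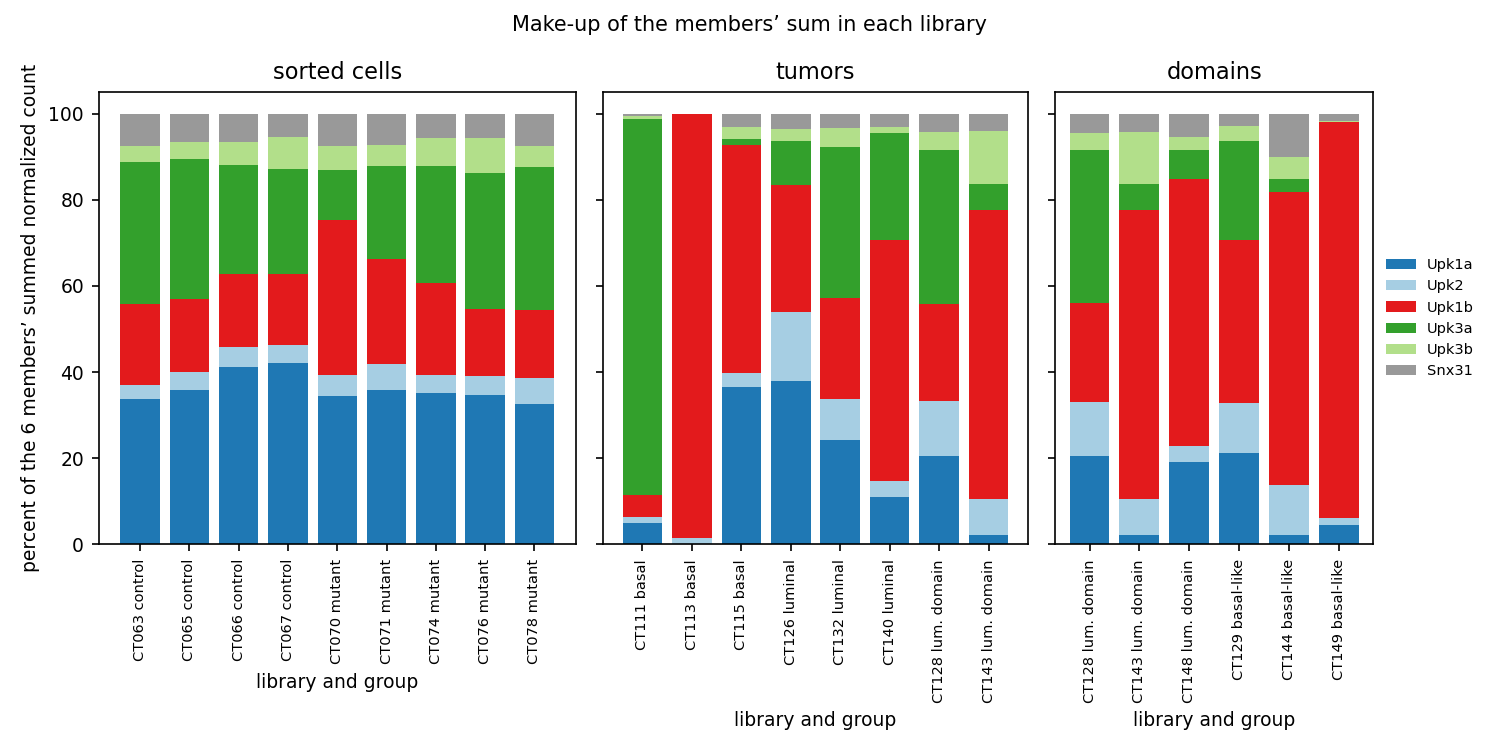
Percent of the 6 members' summed normalized count that each member holds, per library, in the sorted cells, the tumors and the domains. Upk1b (red) takes 98.4% in basal tumor CT113 and 91.9% in basal-like domain CT149, and Upk3a (dark green) takes 87.2% in basal tumor CT111.

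Upk3bl, which neighbours Upk3b and is named for its likeness to it, did not follow the members. In sorted cells its log2 difference was -0.38 (adjusted p = 0.755), and in luminal tumors it was 1887 to 17142 against 700 to 6502 in basal tumors (log2 difference 1.17, adjusted p = 0.595). Its lowest luminal tumor, CT132, was the library with the most of every member. In luminal domains against basal tumors the difference was 1.36 (adjusted p = 0.460), and in basal-like against luminal domains 0.26 (adjusted p = 0.986).

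The 10 genes followed for uroplakin vesicle traffic (Rab11a, Rab8a, Myo5b, Rab27b, Sytl2, Vamp8, Stx11, Snap23, Mal and Vps33a) were each fitted in the same models. In sorted cells none of the 10 was called, 8 were higher and 2 lower, and Rab11a, a GTPase of recycling endosomes, had the largest value (0.79, adjusted p = 0.277). In luminal tumors 9 of 10 were higher than in basal tumors and none was called (median 1.51). Mal, a raft protein needed for fusiform vesicles to join the apical membrane, was 28266 to 122040 against 571 to 17904 (log2 difference 4.61, adjusted p = 0.0634). Rab27b, a GTPase on fusiform vesicles, was 7401 to 41017 against 680 to 4058 (3.46, adjusted p = 0.0604). Both passed with array weights, with luminal tumors and domains pooled and without CT140, and Mal also without CT115 (adjusted p down to 0.0240 for Mal and 0.0247 for Rab27b). Against the same basal tumors the luminal domains had 10 of 10 higher and 1 of 10 called, Rab27b, against 1.7% of all genes called as higher (3.31, adjusted p = 0.0480), a call lost when CT111, CT113, CT128, CT143 or CT148 was left out. The call of Rab27b was also lost with a pseudocount of 0.5, without a filter, without a trend, with quantile or upper-quartile scaling and with 2 luminal domains in the table of 8 libraries (6 of 9 other settings, adjusted p up to 0.164).

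In basal-like domains 8 of these 10 genes were lower than in luminal domains and none was called, with a median of -0.44. For 6 of 10 the groups did not overlap, all lower, against 5.14% of all genes. Mal was 26450 to 42055 in basal-like and 53111 to 71499 in luminal domains (-1.01, SE 0.27, adjusted p = 0.770). Sytl2, an effector of Rab27, was 718 to 1454 against 1837 to 3225 (-1.16, SE 0.37), and the syntaxin Stx11 was 186 to 794 against 832 to 1442 (-1.43, SE 0.58). The widest of these differences, that of Stx11, was smaller than those of 5 of the 6 members.

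A list of 9 transcription factors linked to urothelial differentiation held Pparg, Rxra, Gata3, Foxa1, Elf3, Grhl3, Klf5, Ehf and Trp63. In sorted mutant cells 7 of 9 were lower and none was called, and Pparg and Gata3 did not overlap with controls, as 4.51% of genes did in this direction (-0.36 and -0.45, adjusted p = 0.126 and 0.140). In luminal tumors Pparg, which was 13.0 to 126 in basal and 3579 to 8632 in luminal tumors, rose (6.74, SE 0.80, adjusted p = 0.0127). Luminal tumors and domains came from animals with the VP16;Pparg transgene switched on, and whether its transcript was counted as Pparg is not stated. The part of the transgene in the Pparg values was not tested. Elf3, an Ets factor of epithelial differentiation, rose as well (2.15, adjusted p = 0.0312), and the remaining 7 of 9 did not pass, in a comparison where 1.02% of genes were called as higher. The call of Pparg was lost without CT126 or CT132, with adjusted p up to 0.0879, and that of Elf3 without any library but CT113 or CT140 (up to 0.119) and also without a filter, without a trend and with basal and luminal tumors alone (up to 0.106). The same 2 of 9 were called in luminal domains against basal tumors, where 1.7% of genes were called as higher (Pparg 6.31, adjusted p = 0.0239; Elf3 2.59, adjusted p = 0.0258). There the call of Pparg was lost without CT128, CT143 or CT148 (adjusted p up to 0.111) and that of Elf3 without any library but CT113 (up to 0.110), and both were lost without a trend in the variance (0.0587 and 0.0918). In basal-like domains 7 of 9 were lower than in luminal domains and none was called. Pparg (2326 to 3230 against 4116 to 5427, -0.79) and Gata3 (5432 to 9240 against 9320 to 14566, -0.80) were the 2 that did not overlap. Over all genes 5.14% were separate in this direction.

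Over the 8 libraries of the tumor table the genes most like the mean of the members were Capn5, Snx8, Ndrg2, Tmem254c and Mon1a, each with r = 0.99, and 296 of 16640 genes exceeded 0.9. In the table of luminal domains and basal tumors they were Hadhb, Acaa1b, Pttg1ip, Snapin and Chp1 (r between 0.99 and 1.00, 6 libraries), and in the table of domains Add3, Mrnip, Lpin3, Olfr457 and Hlx (0.99 to 1.00, 6 libraries). Among the members themselves Snx31 was nearest to the mean in the tumor table (0.99) and Upk1b farthest (0.84). With so few libraries, split into groups, high values are common: 521 of 14921 and 258 of 14874 genes exceeded 0.9 in the latter 2 tables.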

How the data were processed

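RNA of sorted cells and of laser-captured tissue was amplified with SMART-Seq v4 and sequenced after Nextera XT preparation. The authors quantified reads with kallisto 0.44.0, summarised them to genes and normalized them with DESeq2 1.18; the submitters' processing notes also list bcl2fastq 2.20, sleuth and the builds GRCh38 and GRCm38. The deposited values are a signal, normalized counts per gene, scaled separately in each table and with factors that differ between genes, so read depth and whole reads could not be recovered, and values are compared within a table. The authors' fold changes and p-values, in separate deposited files, were not used. Columns were tied to groups by the tables that name them. The 8 columns of a table of 1 month of BBN were not used, since no label ties them to a condition.

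Values were taken as log2(normalized count + 1). Genes with at least 10 normalized counts in as many libraries as the smallest group were tested with limma 3.58.1 (R 4.3.3; trended variance, Benjamini-Hochberg adjustment over all genes tested, threshold 0.05). Luminal tumors, luminal domains and basal tumors of 1 table were fitted together, so there the filter asked for 2 libraries. This scale understates the change of low genes. The procedure was tested on simulated data. Partner ratios were compared in sorted cells by an exact permutation test (scipy 1.17.1). Sums over markers are values without a test. Alternatives were other pseudocounts (0.5 and 5), no filter or at least 50 normalized counts, no trend, array weights, quantile and upper-quartile scaling, other tables or groupings, and each library left out. The members and gene lists were chosen with earlier results of these data known. Named genes are the members, Upk3bl, the vesicle and regulator lists, and the 5 genes per table most correlated with the members' mean; Fabp4 and single marker genes of other cells are given as checks. Positions and transcript lengths are from GENCODE M21, promoters from RefSeq.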

Additional observations from a re-analysis of the deposited data

How the results depend on the processing

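No paired analysis was possible by replicate number because the deposited columns carry library numbers and no replicate numbers. Pairing the domains by neighbouring library numbers instead was not tested, since no label says that neighbours share a lesion. Of 264 values of single members under other settings, 246 kept their direction and their side of the threshold, 13 fell below it, 3 passed it and 2 turned sign: with quantile normalization Upk1a and Upk3a in sorted cells were -0.048 and -0.039. Of 222 values with 1 library left out, 175 were kept, 33 fell below, 3 passed and 11 turned sign. All 11 were of members that were not called, and the cause was not tested. Only members called in the main fits could fall below the threshold, 5 in luminal tumors and 3 in luminal domains against basal tumors. The 264 and 222 values also hold members without a call, so these totals do not measure how stable the calls were. In luminal domains against basal tumors Upk2, Upk3b and Snx31 each lost their call in 4 of 6 fits with 1 library left out. Members called in luminal against basal tumors numbered 5, and 6 with a pseudocount of 5, array weights or luminal tumors and domains pooled, 3 without a filter, 1 without a trend, 2 with basal and luminal tumors alone and 0 to 5 with 1 library left out. In luminal domains against basal tumors they numbered 3, and 0 without a trend and 0 to 4 with 1 library left out; in the other 3 comparisons they stayed at 0.

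Over all genes, 467 were called in sorted cells, and 269 without a trend, 1054 with array weights, 147 in the smaller table of 3 against 3 libraries and 84 to 596 with 1 library left out. In luminal against basal tumors 288 were called, and 52 without a filter, 128 without a trend, 492 with luminal tumors and domains pooled, 49 with basal and luminal tumors alone and 3 to 813 with 1 library left out. In luminal domains against basal tumors 377 were called, and 144 without a filter, 107 without a trend, 53 in the table of 8 libraries and 0 to 518 with 1 library left out. Luminal tumors against luminal domains gave 0, 7 without a trend and 0 to 1 with 1 library left out, and basal-like against luminal domains gave 0 and 20 without a trend. With 1 library left out the log2 difference ranged from -0.22 to 0.29 for Upk3a in sorted cells. In luminal tumors against luminal domains it ranged from -0.40 to 5.34 for Upk1a, -1.08 to 2.11 for Upk2, -1.26 to 3.88 for Upk3a, -1.78 to 0.41 for Upk3b and -0.86 to 1.79 for Snx31, and in basal-like against luminal domains from -0.57 to 0.71 for Upk3bl. Where a luminal domain was left out of the 3-group fit, the remaining one was assumed to vary like the other groups.
Scaling moved the median log2 difference of all genes from -0.14 to 0.03 with quantile normalization in luminal against basal tumors and from 0.01 to -0.14 with upper-quartile scaling in luminal domains against basal tumors.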
